A study of Bos taurus with 32 samples.

Results

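Visceral fat was compared with subcutaneous fat within 8 steers fed a high fat diet. The comparison uses the 16 arrays labelled high fat diet of the 32 arrays in the series, 8 of visceral and 8 of subcutaneous fat, matched by the steer number in the sample titles. The animals were Hereford × Aberdeen Angus yearling steers, and in their diet flaxseed took the place of part of the barley grain. Subcutaneous fat was backfat and visceral fat was perirenal fat, both frozen after slaughter. Total RNA (100 ng) was labelled with the single dye Cy3 and hybridized to a custom Agilent array for bovine miRNAs, with 1 array for each sample. The 8 control diet steers are used here only where the depot difference was compared between diets. The 8 subcutaneous arrays shared 1 slide and the 8 visceral arrays another, so slide and depot cannot be told apart.

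miRNAs are short RNAs, cut from hairpin precursors, that pair with messenger RNAs and lower their translation or stability. Fat depots arise at different body positions, and mature adipose tissue keeps a memory of position in the activity of its HOX genes, whose clusters also encode the miR-10 and miR-196 families. Perirenal fat surrounds the kidney and is largely brown fat in newborn ruminants before it turns white. Whole tissue holds adipocytes together with stromal, vascular and blood cells, and in such samples fewer cells of a type and less RNA per cell cannot be told apart.

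Of the miRNAs on the array, 289 were detected on at least 1 of the 16 arrays, 159 on all 16 and 383 on none. Both depots shared 255 of the detected miRNAs, 19 were seen only in subcutaneous fat and 15 only in visceral fat. None of these depot-limited miRNAs was seen on all 8 arrays of its depot: the most widely detected was miR-424* on 7 subcutaneous arrays, and the highest number in visceral fat alone was 5 arrays. A group of 54 miRNAs was detected on all 8 subcutaneous arrays and on fewer visceral arrays, while 0 had the reverse pattern.

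The visceral arrays were dimmer as a whole. They held between 169 and 259 detected miRNAs, against 228 to 254 on the subcutaneous arrays, and 6 of 8 steers had fewer in visceral fat (mean difference -33, exact sign-flip p = 0.03125). The sign turned when detection was set by a deposited value above 0 (0.125) or by a common scaled intensity (2.75), and neither difference passed the test (exact sign-flip p = 1 and 0.484). For the difference of -33, leaving out any 1 of steers 103, 109, 204, 303, 411 or 412 raised the exact sign-flip p to 0.0625. The summed intensity of all miRNAs was 0.663-fold that of subcutaneous fat (log2 difference -0.59, two-sided exact sign-flip p = 0.0391, lower in 7 of 8 steers), where 0.0078125 is the smallest p that 8 pairs allow. Leaving out any 1 steer other than 302 ended this call (exact sign-flip p = 0.0625 to 0.0781). Spike-in RNAs added before labelling were also lower, 0.784-fold (exact sign-flip p = 0.0234, lower in 7 of 8 steers). Those added before hybridization were not distinguishable, with a log2 difference of 0.02 (exact sign-flip p = 0.641). For steers 303, 411 and 412 the labelling spike-ins in visceral fat were 0.657, 0.574 and 0.530 of those in subcutaneous fat, whereas the other 5 steers lay between 0.857 and 1.05. Without these 3 steers the summed intensity differed by -0.18 (exact sign-flip p = 0.3125, where 5 pairs cannot go below 0.0625). Some differences below are also given scaled to these spike-ins or without these 3 steers.

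**Figure D1:**
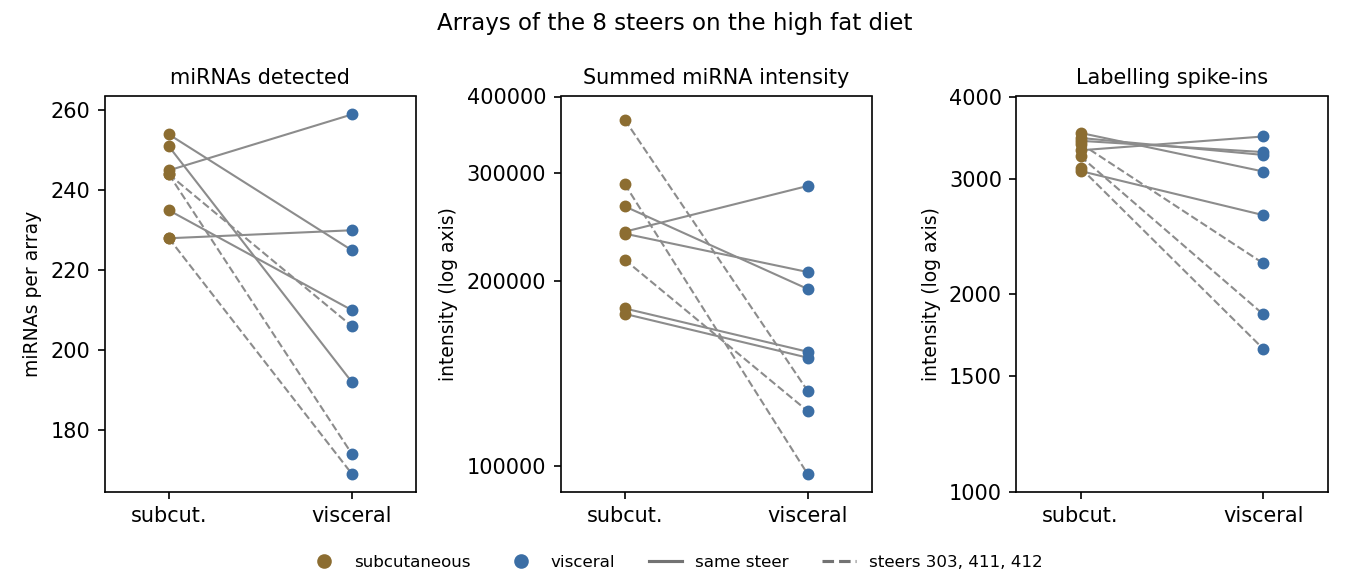
Number of miRNAs detected, summed intensity of all miRNAs and intensity of the labelling spike-ins (log axes for both intensities) on each array, with lines joining the samples of a steer and dashed lines for steers 303, 411 and 412. The summed intensity was lower in visceral fat in 7 of 8 steers, and the dashed steers show the steepest falls of the spike-ins.

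Levels are given as log2 of the intensity of a miRNA divided by the 75th percentile of its array, taken over the 159 miRNAs that all 16 arrays detected, so that 0 stands for that percentile. Values below a common floor of -8.29, including those of undetected miRNAs, were set to it. The 232 miRNAs detected on at least 8 arrays were tested with limma, with the steer as a block, and called at a Benjamini-Hochberg adjusted p under 0.05. Of them 99 (42.7%) were called, 54 (23.3%) higher and 45 (19.4%) lower in visceral fat. In all 8 steers the direction was the same for 31 of the higher and 22 of the lower calls, against 54 of all 232 miRNAs (23.3%). The 2 depots did not overlap for 12 higher and 8 lower calls, together 8.62% of the miRNAs tested. A difference above 2-fold was found for 9 of the higher and 21 of the lower calls. All but 2 of the higher calls were detected on all 16 arrays, whereas 19 of the lower calls were undetected on at least 1 visceral array.

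The direction of many higher calls depended on the scaling between arrays. With no scaling, the median difference of the tested miRNAs moved from 0.07 to -0.84, and the calls became 1 higher and 130 lower. With scaling to the labelling spike-ins the median was -0.53, with 3 higher and 92 lower calls. Scaling to the median of the 159 miRNAs gave 49 higher and 53 lower calls, quantile normalization 49 and 48, and the 75th percentile over the whole array 22 and 52. Of the 54 higher calls, 10 kept a positive difference under all 5 of these scalings, namely miR-196a, miR-378, miR-197, miR-760, miR-1281, miR-10a, miR-940, miR-2382*, miR-2425* and miR-192. Only miR-196a among them was also called under all 5. All 45 lower calls kept a negative difference under all 5 scalings, and 37 were called each time. With normexp background correction, which is not among these scalings, the calls were 171 higher and 18 lower. Normexp added an offset of 50 to each spot before division by the array's percentile. A dim miRNA then rests largely on the offset, and comes out higher where the percentile is lower, as in visceral fat. Turns of dim miRNAs from lower to higher under normexp therefore do not show a higher level. No scaling and the spike-ins moved the tested miRNAs down as a whole (medians -0.84 and -0.53). Lower calls could hardly turn there, whereas higher calls could, so the contrast does not show that lower calls were sturdier. A higher level in visceral fat is therefore stated below relative to the 75th percentile of the array, which in intensity was 0.502-fold that of subcutaneous fat (exact sign-flip p = 0.0156).

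**Figure D2:**
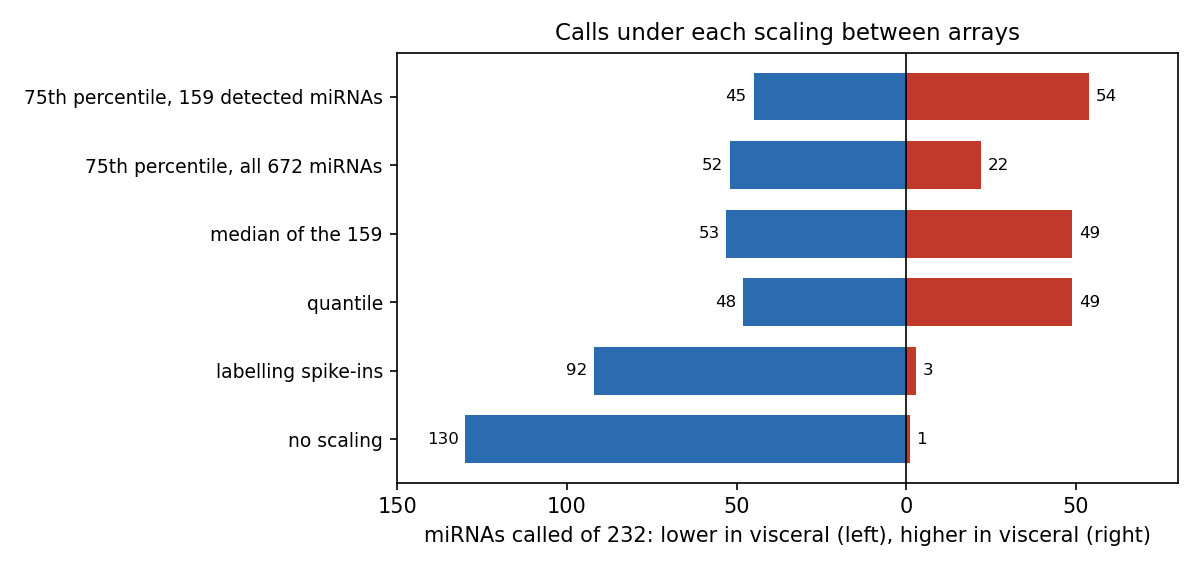
Number of the 232 tested miRNAs called lower (blue, left) or higher (red, right) in visceral fat under each of 6 scalings between arrays. The calls were 54 higher and 45 lower with the scaling used in the text, 3 and 92 with the labelling spike-ins, and 1 and 130 with no scaling.

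The largest difference belonged to a miRNA of the HOX gene clusters. RefSeq places the genes of miR-196a beside HOXC10 and within HOXB9 on the ARS-UCD2.0 assembly, and miR-196a is known to repress HOX messenger RNAs and to favour fat cell formation from progenitors. Its subcutaneous level ran from -6.98 through a median of -6.59 to -6.08, and its visceral level from -2.47 through -2.24 to -1.34. The 2 depots lay far apart in every steer. The difference was 4.56 ± 0.19 (SE, n = 8 pairs), or 23.5-fold (adjusted p = 1.5e-07), and it was 3.56 with no scaling, 3.91 with the labelling spike-ins and 4.56 without steers 303, 411 and 412. It was the only HOX cluster miRNA called under all scalings.

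miR-10a, encoded within HOXB3, was the other HOX cluster miRNA that was called. It ran from -2.81 through -2.33 to -1.69 in subcutaneous fat and from -1.77 through -1.23 to -0.95 in visceral fat. The ranges touched, but visceral fat was higher in 8 of 8 steers, by 1.06 ± 0.16 (adjusted p = 0.0015), and by 0.06 (adjusted p = 0.858) with no scaling. miR-10b, encoded in HOXD4, was at 0.55 to 1.48 with a median of 1.13 in subcutaneous fat and at 1.08 to 1.86 with a median of 1.41 in visceral fat. Its difference of 0.37 ± 0.14 missed the threshold (adjusted p = 0.052) and turned to -0.62 with no scaling and -0.27 with the labelling spike-ins. With quantile normalization it was called higher, as were all 3 tested HOX cluster miRNAs. The other HOX cluster miRNAs on the array, miR-196b and miR-615, were detected on none of the 16 arrays. Members of a family with nearly the same sequence may share signal on such an array, and this was not resolved for miR-10a and miR-10b.

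**Figure D3:**
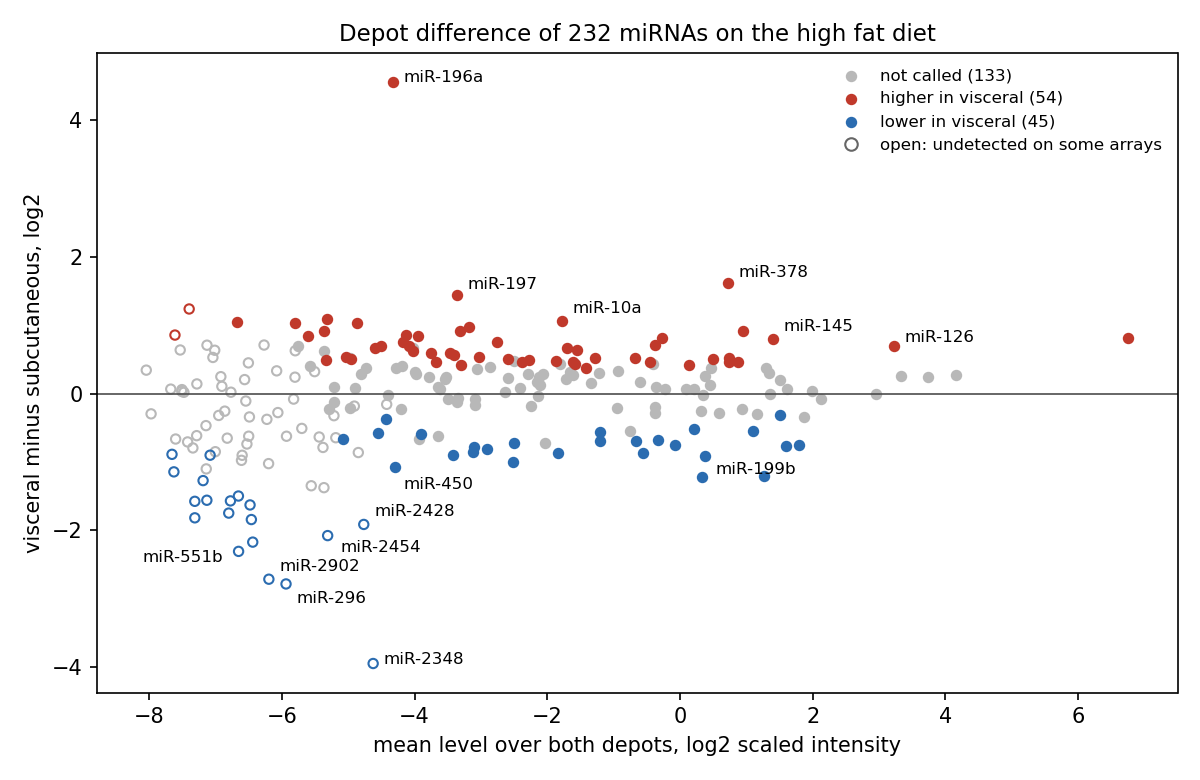
Depot difference (visceral minus subcutaneous, log2) of the 232 tested miRNAs against their mean level over both depots (log2 scaled intensity), coloured by the call, with open circles for miRNAs undetected on some arrays. miR-196a stands apart at 4.56, while most of the largest lower values are dim miRNAs with open circles; with no scaling 130 miRNAs were called lower and 1 higher.

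miRNAs tied to oxidative and brown fat were also among the higher calls. miR-378, with the second largest higher value, lies within PPARGC1B, which codes for a coactivator of mitochondrial genes, and has another gene within CALCR. In subcutaneous fat miR-378 ran from -0.40 through 0.01 to 0.22, and in visceral fat from 0.62 through 1.57 to 2.04. The depots did not overlap, and the difference was 1.62 ± 0.16, or 3.07-fold (adjusted p = 0.00019). With the labelling spike-ins it was 0.97 (adjusted p = 0.0036), and with no scaling 0.62 (adjusted p = 0.065).

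The miR-193b-365 cluster is known for its part in brown fat differentiation. Of its miRNAs only miR-365-3p was tested, since miR-193b, like miR-455, was detected on too few arrays. RefSeq places genes of miR-365-3p near MRTFB and PARN and near RAB11FIP4 and NF1, where a gene of miR-193a also lies. Which of these genes gave the signal was not tested, so it is no separate measure of the cluster. miR-365-3p was at -0.04 to 0.98 with a median of 0.45 in subcutaneous fat and at 0.87 to 2.22 with a median of 1.24 in visceral fat. The ranges overlapped slightly, yet all 8 steers had more in visceral fat, by 0.92 ± 0.19 (adjusted p = 0.0055). This difference turned negative with no scaling. miR-193a-5p, which comes from miR-193a and not from miR-193b, was higher by 0.76 ± 0.20 in 7 of 8 steers (adjusted p = 0.015). miR-193a-3p (0.43) and miR-455* (-0.02) were not called. Of the 5 tested miRNAs in the list of miR-193, miR-365, miR-378 and miR-455, 3 were higher and 0 lower (23.3% and 19.4% of all miRNAs tested), with a median difference of 0.76 that turned to -0.24 with no scaling, against 0.07 for all 232 miRNAs.

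miR-197, within AMPD2, had the third largest higher value. It ran from -4.30 through -4.08 to -3.82 in subcutaneous fat and from -3.18 through -2.76 to -1.90 in visceral fat, without overlap. Its difference was 1.44 ± 0.18 (adjusted p = 0.00055), and 0.79 (adjusted p = 0.0046) with the labelling spike-ins. The other miRNAs among the 10 largest higher values were miR-760, miR-1281, miR-940, miR-2382*, miR-2425* and miR-362-5p, with differences between 0.98 and 1.24 in 7 or 8 of 8 steers. miR-760 was undetected on 1 visceral array.

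Markers of adipose tissue, namely miR-103, miR-107, miR-143, miR-378, miR-26a and miR-30c, were detected on all 16 arrays. Of these 6, 5 were higher and 0 lower in visceral fat, where 23.3% of all miRNAs tested were higher and 19.4% lower, but with no scaling only miR-378 kept a positive difference among the 5. miR-103 and miR-107, which lie in genes of pantothenate kinases and are known to dampen insulin signalling in liver and fat, differed by 0.42 ± 0.15 (adjusted p = 0.0498) and 0.52 ± 0.14 (adjusted p = 0.015), with a median of -0.53 with no scaling and -0.17 with the spike-ins. The call of miR-103 was lost on leaving out any of 6 of the 8 steers (adjusted p = 0.054 to 0.113). miR-30c, of a family known to favour adipogenesis, was higher in 8 of 8 steers by 0.70 ± 0.12 (adjusted p = 0.0021). It was the only one of 7 tested miR-30 miRNAs that was called, and its difference was -0.29 with no scaling.

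The list of vascular miRNAs was divided, with both strands of miR-126 higher, miR-221 and miR-222 lower and a median of -0.10. miR-126, made in endothelial cells from the host gene EGFL7, was at 2.51 to 3.17 with a median of 2.96 in subcutaneous fat and at 3.21 to 3.99 with a median of 3.55 in visceral fat. The depots did not overlap, with a difference of 0.70 ± 0.13 (adjusted p = 0.0034). miR-126*, the other strand of its hairpin, differed by 0.46 ± 0.15 (adjusted p = 0.037), a value that turned to -0.19 with the labelling spike-ins and lost its call on leaving out any of 5 steers.

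miR-145 and miR-143 are neighbours near CSNK1A1 and are most abundant in smooth muscle and stromal cells. miR-145 was at 0.50 to 1.41 with a median of 1.05 in subcutaneous fat and at 1.40 to 2.74 with a median of 1.60 in visceral fat, and was higher in 8 of 8 steers by 0.80 ± 0.18 (adjusted p = 0.0076). miR-143, which is also known to favour adipocyte differentiation, was higher by 0.42 ± 0.15 in 6 of 8 steers (adjusted p = 0.049), and lost its call on leaving out any of 6 steers (adjusted p = 0.0685 to 0.113). With no scaling the miR-126 and miR-145 differences were -0.30 and -0.19, and the median of the miR-143 and miR-145 pair was -0.39 with no scaling and -0.03 with the spike-ins.

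miR-192 and miR-194 share a cluster in EHD1 and are abundant in kidney and gut epithelium. miR-194 was at -5.44 to -4.34 in subcutaneous fat and at -4.69 to -3.86 in visceral fat, and was higher in 8 of 8 steers by 0.67 ± 0.17 (adjusted p = 0.013). miR-192 was close to the floor, detected on 7 arrays of each depot, and higher by 0.86 ± 0.21 (adjusted p = 0.013). Without scaling the pair's median was -0.14 and neither was called. The defining epithelial markers miR-200a, miR-200c, miR-141, miR-429 and miR-205 were detected on 0 of the 16 arrays, and miR-200b on 1 visceral array.

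Other cell type markers showed the following. Liver miR-122 was undetected in subcutaneous fat and detected on 2 visceral arrays, at -0.24 for steer 109 and -6.06 for steer 411. Without steer 109 the differences of miR-192 and miR-194 were 0.70 and 0.61. The 4 neural and endocrine markers, miR-9, miR-124a, miR-7 and miR-375, were undetected. The muscle markers miR-1 and miR-133b were detected on all 16 arrays, and of the 3 tested muscle miRNAs 0 were called. Their summed scaled intensity with the other muscle markers was 0.0374 to 0.377 in subcutaneous and 0.0900 to 0.181 in visceral fat.

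Among blood cell markers, the erythroid miR-486 was higher in 8 of 8 steers without overlap, by 0.86 ± 0.14 (adjusted p = 0.002), a value that turned to -0.14 with no scaling, whereas erythroid miR-451 differed by -0.16 ± 0.21 (adjusted p = 0.54). The summed intensity of the 3 erythroid markers was 0.114 to 0.243 in subcutaneous and 0.127 to 0.267 in visceral fat. Of the leukocyte markers, miR-155 was lower by 0.59 (difference -0.59 ± 0.14, adjusted p = 0.01), and miR-142, miR-223 and miR-146b were not called. Their differences were -0.03, -0.72 and 0.70. miR-223, made mainly in myeloid cells, reached 0.26 in the subcutaneous fat of steer 202 against a subcutaneous median of -1.97. The part of these cells in the depot differences was not tested.

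**Figure D4:**
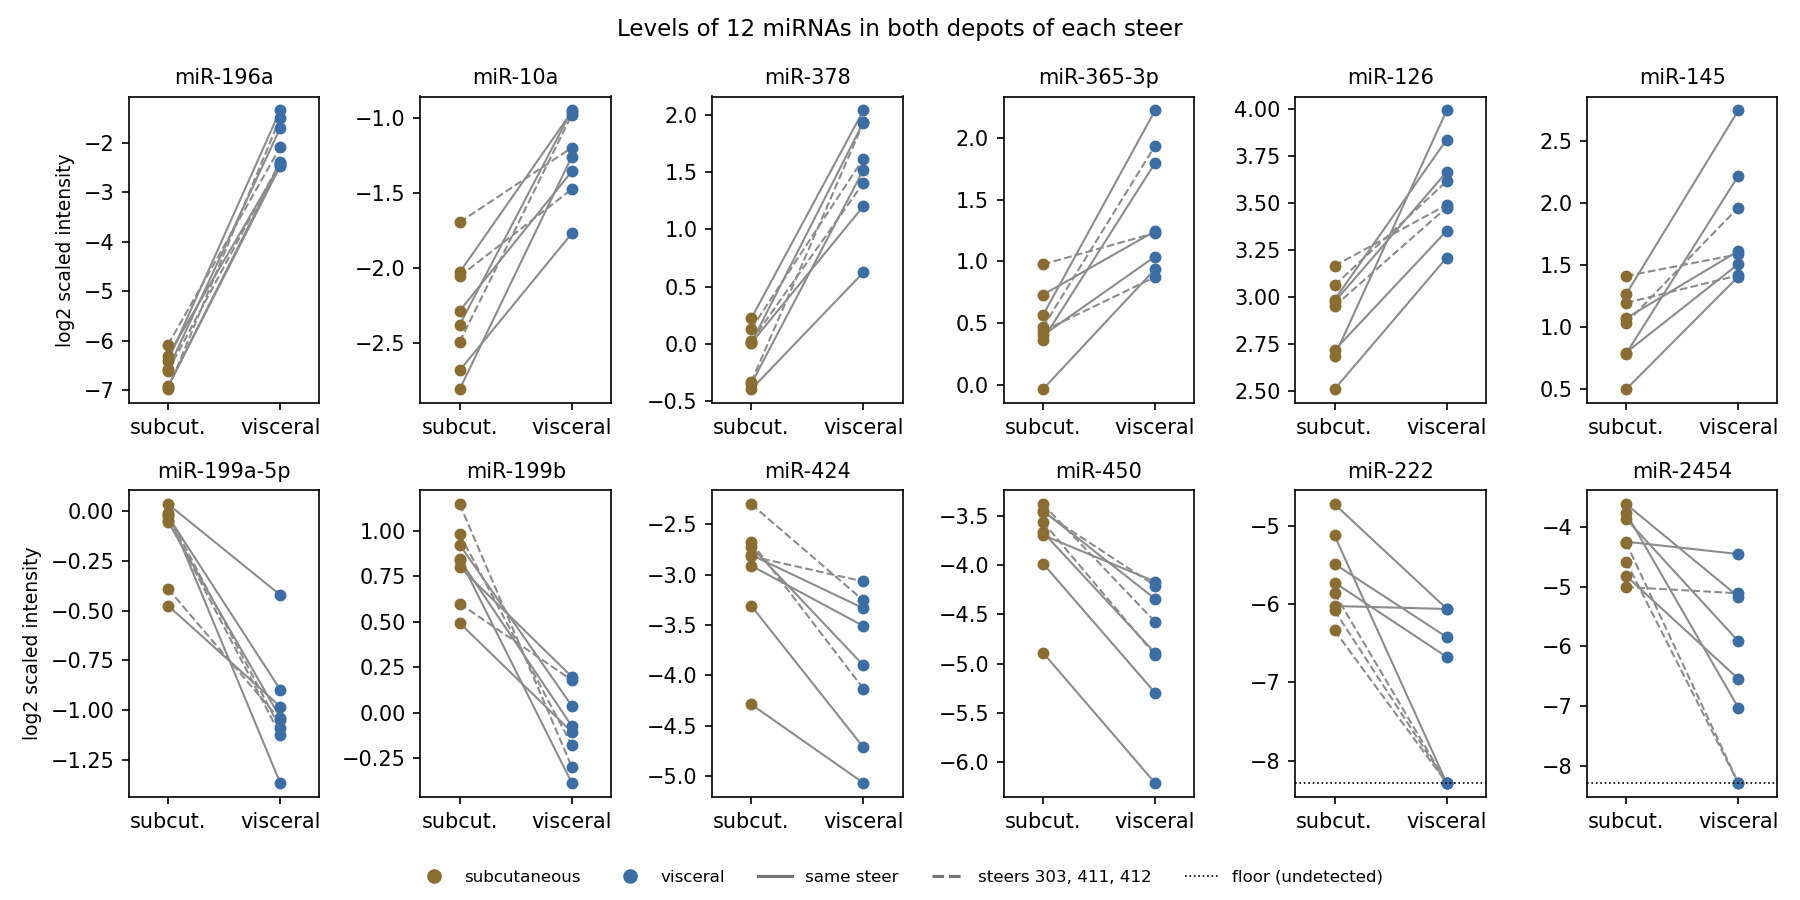
Level (log2 scaled intensity) of 12 miRNAs in both depots of each steer, with lines joining the samples of a steer, dashed for steers 303, 411 and 412, and a dotted line at the floor for undetected miRNAs. The miRNAs of the upper panels were higher in visceral fat in 8 of 8 steers, although miR-365-3p, miR-126 and miR-145 turned to negative mean differences with no scaling, and those of the lower panels were lower in 8 of 8 steers.

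The miR-199 and miR-214 group was lower throughout in visceral fat. miR-199a, miR-199b and miR-214 lie on the antisense strand of dynamin genes, with miR-199a-1 and miR-214 together in DNM3, and the group is known for its expression in mesenchymal and stromal cells. miR-199b was at 0.49 to 1.15 with a median of 0.85 in subcutaneous fat and at -0.38 to 0.20 with a median of -0.09 in visceral fat. The depots did not overlap, and the difference was -0.91 ± 0.14 (adjusted p = 0.002). miR-199a-5p was at -0.48 to 0.03 with a median of -0.03 in subcutaneous fat and at -1.37 to -0.42 with a median of -1.04 in visceral fat, with a difference of -0.87 ± 0.14 (adjusted p = 0.0018).

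The other strand, miR-199a-3p, was lower without overlap (-0.75 ± 0.13, adjusted p = 0.0021), as was miR-199c (-0.72 ± 0.12, adjusted p = 0.0024), and miR-214 differed by -0.56 ± 0.15 (adjusted p = 0.017). Thus 5 of the 5 members tested were lower, where 19.4% of all miRNAs tested were, with a median of -0.75 against 0.07 for all miRNAs, and 5 of 5 were called lower under each of the other 5 scalings. Without steers 303, 411 and 412 the values were -0.84, -0.83, -0.72, -0.65 and -0.50 for miR-199b, miR-199a-5p, miR-199a-3p, miR-199c and miR-214, of which the last 2 missed the threshold (adjusted p = 0.063 and 0.12). Mature miR-199 members are nearly alike, so signal shared between their probes was not resolved.

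miR-424, miR-450 and miR-542-5p come from neighbouring hairpins between PLAC1 and HPRT1, and all 3 were lower in visceral fat. miR-450 is singled out here after its values were seen. miR-424, a member of the miR-15/16 family known to hold back the cell cycle, was at -4.29 to -2.30 with a median of -2.81 in subcutaneous fat and at -5.07 to -3.07 with a median of -3.71 in visceral fat. The ranges overlapped widely across steers, but all 8 steers had less in visceral fat, by a difference of -0.89 ± 0.16 (adjusted p = 0.0028).

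miR-450 was at -4.89 to -3.38 with a median of -3.61 in subcutaneous fat and at -6.21 to -4.17 with a median of -4.73 in visceral fat. It too was lower in 8 of 8 steers (-1.07 ± 0.14, adjusted p = 0.00062), and steer 204 had the lowest level of both miRNAs in both depots. miR-542-5p was detected on 8 subcutaneous arrays and on 1 visceral array, that of steer 302. With undetected arrays set to their own lowest detected level, it was 1.90-fold lower in visceral fat. Such a fold is a bound only if the miRNA lay under that level, which was not tested. miR-497, another miR-15/16 relative, was lower without overlap (-0.55 ± 0.13, adjusted p = 0.01), whereas miR-16a was higher by 0.43, a value that turned to -0.56 with no scaling. Of the 7 tested miR-15/16 miRNAs 1 was higher and 2 were lower. With normexp background correction, whose offset raises dim miRNAs on dimmer arrays, miR-424, miR-450 and miR-542-5p turned to 0.11, 0.23 and 0.70.

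The miR-221 and miR-222 pair, known to slow endothelial growth and to be raised in inflamed fat, was lower. miR-221 was at -5.39 to -3.63 with a median of -4.87 in subcutaneous fat and at -5.93 to -4.98 with a median of -5.42 in visceral fat, a difference of -0.66 ± 0.19 in 7 of 8 steers (adjusted p = 0.019). miR-222 was at -6.33 to -4.72 in subcutaneous fat and at the floor on 4 visceral arrays, the other 4 lying between -6.67 and -6.05. It was lower in 8 of 8 steers, by a difference of -1.63 with undetected arrays at the floor (adjusted p = 0.0041). With those arrays at their own lowest detected level it was 1.90-fold lower. With normexp background correction, whose offset raises dim miRNAs on dimmer arrays, miR-221 and miR-222 turned to higher values, 0.75 and 0.65.

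Several further lower miRNAs have known roles in fat cells. miR-130b, which represses the adipogenic receptor PPARG, was at -5.71 to -4.43 on the 8 subcutaneous arrays and undetected on 4 visceral arrays. With those 4 at the floor its difference was -2.17 (adjusted p = 0.00025). With them at their own lowest detected level it was 2.76-fold lower. miR-27a-3p, another repressor of PPARG, was lower in 8 of 8 steers (-0.52 ± 0.16, adjusted p = 0.024). Its call was lost on leaving out any of 4 steers (adjusted p = 0.0512 to 0.0638). miR-204, known to turn marrow stromal cells towards adipocytes and encoded in TRPM3, was at -1.68 to -1.10 in subcutaneous and -2.76 to -1.54 in visceral fat, lower in 7 of 8 steers (-0.87 ± 0.19, adjusted p = 0.0076). miR-210, a miRNA induced by low oxygen, was lower in 7 of 8 steers (-0.57 ± 0.17, adjusted p = 0.024), and also lost its call on leaving out any of 4 steers (adjusted p = 0.0542 to 0.0902). With normexp background correction, whose offset raises dim miRNAs on dimmer arrays, miR-130b and miR-210 turned to 0.57 and 0.47, and miR-155 to 0.36.

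Lists of miRNAs by their published effect on adipogenesis showed no common direction. Of 19 tested miRNAs listed as favouring it, 4 were higher (miR-103, miR-107, miR-143 and miR-378) and 2 lower (miR-204 and miR-210), with a median of 0.08. Of 19 listed as holding it back, 3 were higher (let-7d, let-7e and miR-145) and 6 lower (let-7i, miR-27a-3p, miR-130b, miR-155, miR-221 and miR-222), with a median of 0.06. Both medians were close to the 0.07 of all 232 miRNAs, and both were negative with no scaling (-0.92 and -0.93) and with the 75th percentile over the whole array (-0.04 and -0.05).

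The calls in other large families stand beside 42.7% of all miRNAs tested. Of 10 tested let-7 miRNAs, let-7d and let-7e were higher by 0.51 and 0.52 (-0.49 and -0.48 with no scaling, and -0.13 each with the labelling spike-ins) and let-7i lower (-0.32 ± 0.11, adjusted p = 0.045), a call lost on leaving out any of 7 steers. miR-23b-3p was the single higher and miR-27a-3p the single lower call of 6 in the list of miR-23, miR-24 and miR-27. They were lost on leaving out any of 5 and any of 4 steers. Of 12 tested miRNAs of the miR-17-92 cluster and its paralogs, miR-25 alone was called. Of the miR-26, miR-29, miR-148 and miR-152 miRNAs 0 were called, with differences between -0.29 and 0.38.

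The imprinted DLK1-DIO3 cluster codes for many miRNAs whose expression is tied to the maternal chromosome. Of its 49 miRNAs on the array 23 were detected and 20 tested, of which miR-127, miR-299, miR-487b and miR-665 were higher and 0 lower, against 23.3% and 19.4% of all miRNAs tested. The call of miR-127 was lost on leaving out any of 5 steers (adjusted p = 0.0512 to 0.0823). miR-299 was at -4.84 to -4.14 in subcutaneous fat and at -4.11 to -3.05 in visceral fat, without overlap (0.84 ± 0.15, adjusted p = 0.0024), but its difference was -0.15 with no scaling. The median of the 20 was -0.03 and turned to -0.69 with no scaling, where 0 were higher and 8 lower. With the 75th percentile over the whole array 1 was higher and 3 were lower.

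**Figure D5:**
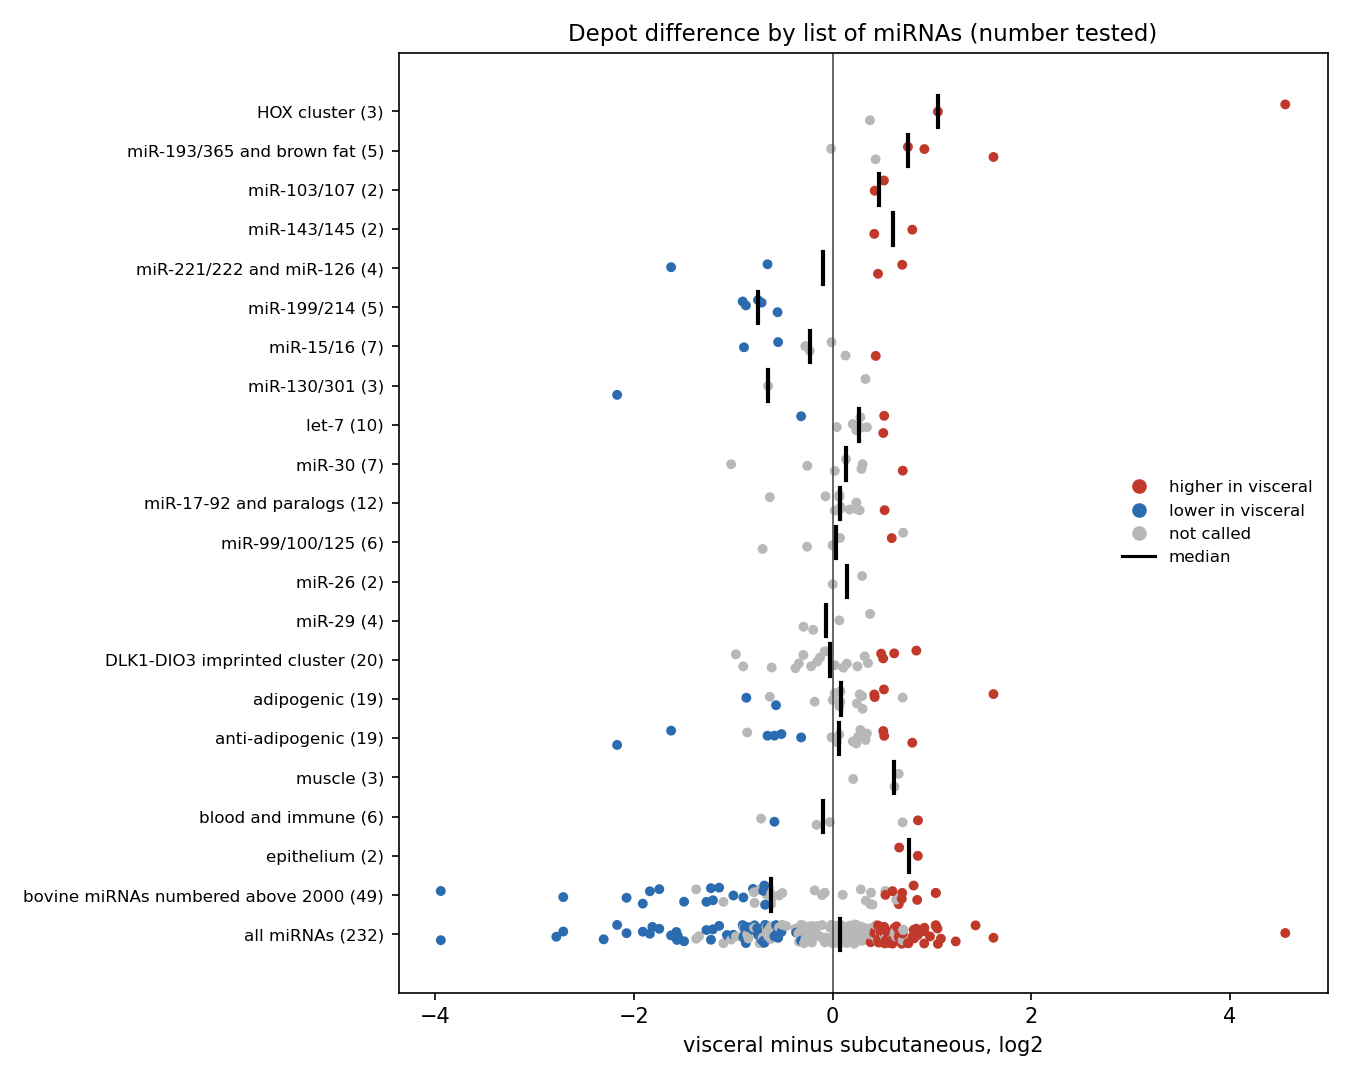
Depot difference (visceral minus subcutaneous, log2) of each tested miRNA in 22 lists, with the number tested in brackets, colours for the call and a black bar at the median. The 5 miRNAs of the list of miR-199 and miR-214 all lie below 0, while with no scaling the median of miR-103 and miR-107 turned negative and that of the HOX cluster fell to 0.06.

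The largest lower values were those of dim miRNAs. miR-2348, within TMC6, was at -3.81 to -1.81 with a median of -2.58 in subcutaneous fat, and in visceral fat it was undetected on 4 arrays and reached -3.83 at most. The depots did not overlap, and with undetected arrays at the floor the difference was -3.95 (adjusted p = 0.0024). With those arrays at their own lowest detected level instead, miR-2348 was 9.71-fold lower. miR-2454, within DNMT1, was at -5.01 to -3.62 with a median of -4.26 in subcutaneous fat and at -4.45 at most in visceral fat, where 2 arrays did not detect it. With those arrays at the floor the difference was -2.08 (adjusted p = 0.0076), and miR-2454 was lower in 8 of 8 steers. With them at their own lowest detected level it was 3.05-fold lower.

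miR-296, beside GNAS, was detected on 8 subcutaneous and 3 visceral arrays. With undetected arrays at the floor its difference was -2.78 (adjusted p = 0.0021). With them at their own lowest detected level it was 4.07-fold lower. By the same measure miR-2902 and miR-551b, each detected on 8 subcutaneous and 2 visceral arrays, were 3.60-fold and 2.87-fold lower. miR-2428, miR-2424 and miR-2436-5p, detected on 6, 4 and 2 visceral arrays, were 2.73-fold, 2.20-fold and 1.84-fold lower. With normexp background correction of the spot intensities, whose offset raises dim miRNAs on dimmer arrays, miR-2348 kept its direction. Positive values between 0.22 and 0.71 were found there for miR-2454 and miR-296, miR-2902, miR-551b, miR-2428, miR-2424 and miR-2436-5p.

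In all, 11 miRNAs were detected on all 8 subcutaneous arrays and at most 2 visceral arrays. Beside miR-2902, miR-551b, miR-542-5p and miR-2436-5p these were miR-1271, miR-188, miR-2360, miR-2389, miR-2449, miR-2900 and miR-362-3p, of which all but miR-2449 (adjusted p = 0.14) were called. All 11 were picked by this detection pattern, and undetected values were set to the floor. A lower call was thus close to fixed by the choice and is no separate support. The calls of miR-2389 and miR-2900 were lost on leaving out any of 6 and any of 4 steers. With normexp, whose offset raises dim miRNAs on dimmer arrays, the 7 from miR-1271 to miR-362-3p took positive values between 0.72 and 0.81. With the highest detection limit as the floor miR-188 and miR-2389 turned to 0.063 and 0.20. On the same hairpin as miR-362-3p, miR-362-5p was higher in visceral fat without overlap, from -3.85 to -3.29 in subcutaneous fat and from -3.20 to -2.17 in visceral fat (0.98 ± 0.15, adjusted p = 0.0016). With no scaling the difference of miR-362-5p was -0.02.

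The miRNAs with numbers from 2284 upwards on this array were mostly first described in cattle. Of the 295 on the array 78 were detected and 49 tested, of which 9 were higher and 17 lower, with a median of -0.62. For the 183 other miRNAs tested the numbers were 45 and 28, with a median of 0.13. By mean level, the dimmest 77 of all tested miRNAs had 8 higher and 17 lower calls with a median of -0.32, the middle 78 had 24 and 13 with 0.23, and the brightest 77 had 22 and 15 with 0.17. The part of brightness in the split by number was not tested.

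Of the 12 miRNAs that the study selected for qRT-PCR, 2 were higher (miR-196a and miR-103) and 2 lower (miR-2454 and miR-296) in visceral fat. The list was chosen on these samples and is not independent evidence. The other 8 differed by between -0.07 and 0.64, and miR-2368* with the value of 0.64 was detected on only 4 arrays of each depot. The reference chosen for qRT-PCR, miR-181a, had medians of -4.41 and -4.24 in the subcutaneous and visceral samples, with overlapping ranges. Its difference was 0.38 ± 0.17 (adjusted p = 0.094), in 7 of 8 steers positive, and turned to -0.62 with no scaling. By qRT-PCR the study reported miR-196a higher in visceral fat and miR-2454 higher in subcutaneous fat. For miR-103 and miR-296 it described qRT-PCR and array as divergent, over both diets and depots.

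The steers followed the group to different degrees. Of the 99 calls, between 83 (steer 411) and 98 (steer 103) had the direction of the group in a given steer. Steer 302 had 85, the smallest median size of difference over all tested miRNAs (0.29, against 0.41 to 0.88 in the others), and the only visceral array with more summed intensity than its subcutaneous partner. Without steers 303, 411 and 412, 208 miRNAs remained to be tested and 38 were called, 17 higher and 21 lower. At least 13 of the miRNAs named here lost their call on leaving out some single steer. All 87 of the original calls that could still be tested kept their direction, and 37 were called again. The calls were made on these same steers, so the kept directions, and the counts by steer above, are no separate support.

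The depot difference was compared with that of the 8 control diet steers by limma on within-steer differences, over 233 miRNAs scaled across all 32 arrays. The control arrays were dimmer, with summed intensities of 26021 to 79290 against 96888 to 366714 on the high fat diet arrays. They detected 115 to 176 miRNAs against 169 to 259. Diet and array brightness cannot be told apart here. Of these 3 (1.29%) differed between diets, miR-450, miR-424 and miR-130b. None of the 3 was detected on any of the 16 control arrays, so their control difference of 0 is that of the floor and not a measured level. Over the miRNAs detected on all 32 arrays limma called 0, with 3 at an unadjusted p under 0.05.

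For miR-196a the depot difference was 4.15 on the high fat and 4.39 on the control diet, where it was detected on 3 of 8 subcutaneous and 8 of 8 visceral arrays, and the interaction was -0.23 ± 0.60 (adjusted p = 0.961). miR-378 differed by 1.49 on the high fat diet and by 0.89 on the control diet, in 8 of 8 steers of each, with an interaction of 0.60 ± 0.22 (adjusted p = 0.191). For miR-199b the differences were -1.03 on both diets, with an interaction of 0.00 ± 0.39 (adjusted p = 0.997). For miR-197 they were 1.31 and 1.12 (interaction 0.19 ± 0.26, adjusted p = 0.904). A missed threshold here does not show that the diets were alike.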

How the data were processed

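Deposited with each array was the Feature Extraction 10.7.3.1 output, in which the authors' software had subtracted background from each spot intensity, summed the 20 spots of each miRNA to a total intensity without scaling between arrays, given 0.1 to an undetected miRNA, and made a detection call. The authors also deposited log2 values normalized in GeneSpring to the 75th percentile, with features identified by number and matched here by value (244 of 244). No spot was saturated (0 of the spots).

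Each total intensity was scaled by its array's 75th percentile over the 159 miRNAs detected on all 16 arrays, floored at the median detection limit (0.00320) and taken as log2. limma 3.58.1 in R 4.3.3 (lmFit, eBayes, two-sided) fitted depot with the steer as a block, since both samples came from 1 animal. The correlation of paired samples' deviations from their group means was -0.067 to 0.531. Array totals were compared by exact sign-flip tests. For miRNAs undetected in some arrays, the fold given sets those arrays to their own lowest detected level. It is a bound only if the miRNA lay under that level there, which was not tested. An adjusted p given for such a miRNA is from the limma fit with undetected values at the floor.

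The alternatives were 5 scalings, spot intensities, normexp (offset 50), another floor and filters, the deposited values, other models of the steer, the methods' t-test, and leaving out each steer. Leaving out steers 303, 411 and 412 was an alternative chosen after the data had been seen.

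The text names the 10 largest higher and 10 largest lower calls with the same direction in at least 7 of 8 steers, the qRT-PCR selection and its reference, HOX cluster miRNAs, called members of lists, and those detected on 8 arrays of 1 depot and at most 2 of the other. Members and lists were chosen with earlier results of these data known. miRNA names are those of the array. Host genes are from RefSeq (229 of 232 matched). With 8 arrays in a group, their number limits the precision.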

Additional observations from a re-analysis of the deposited data

Results flagged for a closer look

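Within each depot, 142 groups of 8 values were examined for a sample far from the other 7, and 13 had one. In 4 of these the other 7 values were tied at the floor, so that any detected value stands apart by construction; for groups without such ties chance gives about 1 in 20, and 9 were found. Steer 302 accounted for 6 of the 13, all in visceral fat, and these include the 4 groups tied at the floor. Its array was the only visceral one to detect miR-1271 (-6.80), miR-2360 (-7.59), miR-362-3p (-6.80) and miR-542-5p (-7.76), with the other 7 arrays at the floor, and it had the lowest level of miR-2382* (-5.47) and miR-2425* (-6.58). It was also the visceral array with the most detected miRNAs (259) and the highest summed intensity.

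In subcutaneous fat, steer 411 had the highest level of let-7d (0.59), miR-103 (0.22) and miR-362-5p (-3.29), steer 202 the highest of miR-130b (-4.43) and steer 109 the highest of miR-2368* (-6.06). Steer 204 had the lowest miR-450 (-4.89) and miR-542-5p (-7.63), both of the miR-424 cluster. These values are on the log2 scaled intensity.

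In limma's test of the depot difference between diets, miR-130b, miR-424 and miR-450 passed the threshold, with values of -1.01, -1.02 and -1.19 on the log2 scale. All 3 were undetected on the 16 control arrays, so the control difference of 0 is that of the floor and a larger difference on the high fat diet was not shown.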

How the results depend on the processing

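The 99 calls became 51 (27 higher, 24 lower) with spot intensities, 189 (171 higher, 18 lower) with normexp, 60 of 163 (26 higher, 34 lower) with the deposited values, 47 (19 higher, 28 lower) with all 32 arrays in 1 fit, 21 (12 higher, 9 lower) by the methods' t-test with Bonferroni correction (96 with Benjamini-Hochberg adjustment) and 38 without steers 303, 411 and 412. Leaving out 1 steer gave 75 to 97. The scalings gave the splits in the report. Without the replicate block, 94 were called, 93 of them shared, and of the named miRNAs miR-665 alone lost its call (adjusted p = 0.062). The difference in detected miRNAs of -33 per array was 2.75 by a common scaled intensity (exact sign-flip p = 0.484). It was -17.1 by spots well above background (p = 0.164, exact) and -19.4 without the 3 steers (p = 0.25, exact). By deposited values above 0, a count nearly fixed by their normalization, it was 0.125 (exact sign-flip p = 1). Leaving out 1 steer gave -39.7 to -27.7, and for the summed intensity -0.71 to -0.45, with -0.18 without the 3 steers. Without the block both kept their values (exact permutation p = 0.0110 and 0.0152). The 3 differences between diets became 30 with no scaling, 5 with the highest detection limit as the floor and 0 over miRNAs detected on all 32 arrays, and 4 without the replicate block. The causes were not tested.

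Some named miRNAs reversed. With no scaling these were let-7d -0.49, let-7e -0.48, miR-101 -0.84, miR-103 -0.57, miR-107 -0.48, miR-10b -0.62, miR-126 -0.30, miR-126* -0.54, miR-127 -0.49, miR-143 -0.58, miR-145 -0.19, miR-16b -0.87, miR-181a -0.62, miR-193a-5p -0.24, miR-194 -0.33, miR-19a -0.75, miR-23b-3p -0.53, miR-299 -0.15, miR-30c -0.29, miR-362-5p -0.017, miR-365-3p -0.073, miR-486 -0.14, miR-92 -0.72 and miR-92b -0.48. With the labelling spike-ins they were let-7d -0.13, let-7e -0.13, miR-101 -0.49, miR-103 -0.22, miR-107 -0.13, miR-10b -0.27, miR-126* -0.19, miR-127 -0.14, miR-143 -0.23, miR-16b -0.51, miR-181a -0.27, miR-19a -0.40, miR-23b-3p -0.18, miR-92 -0.37 and miR-92b -0.44. With normexp they were miR-106 0.35, miR-1271 0.72, miR-130b 0.57, miR-142 0.21, miR-155 0.36, miR-188 0.77, miR-210 0.47, miR-221 0.75, miR-222 0.65, miR-2360 0.74, miR-2389 0.80, miR-2424 0.68, miR-2428 0.22, miR-2436-5p 0.71, miR-2449 0.79, miR-2454 0.37, miR-2900 0.74, miR-2902 0.48, miR-296 0.35, miR-362-3p 0.81, miR-424 0.11, miR-450 0.23, miR-542-5p 0.70 and miR-551b 0.55. With spot intensities they were miR-142 0.16, miR-23b-3p -0.47 and miR-92b -0.41. With the highest detection limit as the floor they were miR-188 0.063 and miR-2389 0.20. miR-92b was at -0.095 with percentiles over the whole array, -0.070 with the median and -0.0019 with all 32 arrays, and between -0.31 and 0.21 with 1 steer left out. miR-16b was at -0.0070 with the median and -0.0044 with quantile normalization, where miR-101 was at -0.042. With 1 steer left out miR-142 lay between -0.10 and 0.084 and miR-106 between -0.17 and 0.013, with miR-106 also at 0.013 without the 3 steers. Signal over background limits the dim miRNAs, whose lower values rest on each array's detection limit. Their positive values with normexp rest largely on its offset of 50, divided by a lower percentile in visceral fat.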
